A study of Caenorhabditis elegans with 8 samples.

Results

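Poly(A) RNA from whole L1 larvae, the first larval stage of the worm Caenorhabditis elegans, was compared between a strain that lacked adr-2 and a strain that kept it. Of the 8 libraries of the series, 4 were used, all of them input RNA: 2 biological replicates labelled Neural ADR-1;adr-2(-) and 2 labelled Neural ADR-1, called adr-2(-) and control here. Input is the RNA of the lysate before ADR-1 was immunoprecipitated. Both strains carried the adr-1(tm668) deletion together with an extrachromosomal array that expressed 3xFLAG-tagged ADR-1 and GFP from the neural rab-3 promoter, and the adr-2(-) strain also carried adr-2(ok735). The control was therefore not wild type, and both strains had ADR-1 only where the array was active. Per the study's methods, worms were synchronised by bleaching, hatched overnight without food and crosslinked with ultraviolet light before lysis, and each strain was a single transgenic line. Of 46916 genes in the table, 13061 were tested, namely those in rows whose deposited mean equalled the mean of the 8 values and was at least 10.

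ADR-2 is the enzyme that converts adenosine to inosine in double-stranded RNA of C. elegans, and ADR-1 is a related RNA-binding protein that lacks editing activity. L1 larvae that hatch without food halt their development and depend on maternal stores, with stress and fasting genes active and growth genes held low. The intestine is the main digestive, metabolic and immune tissue of the worm, and many of its genes carry GATA sites near their start that are read by the factor ELT-2. The same core occurs in the element associated with the transcription factor PQM-1, whose neural expression the study follows, with dod-24 as a reporter.

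The 4 inputs held between 2595323 and 2969937 reads, as recovered from the deposited values. A single read stood for 3.01 and 2.63 normalised units in controls but for 6.40 and 8.91 in adr-2(-), where low values were therefore coarser. Ribosomal RNA genes took 31.6 and 17.3% of reads in the control inputs and 34.1 and 46.1% in the adr-2(-) inputs, although poly(A) RNA had been selected. Across genes, the inputs correlated at r = 0.98 within the control, at r = 0.96 within adr-2(-) and at r = 0.84 to 0.85 between strains. The adr-2 gene was not analysed here, and pqm-1 lay in a row that did not match its deposited mean. The adr-1 gene was listed at 0 in all 4 inputs although both strains carried the ADR-1 array, and the reason was not tested. The labels were thus not checked by the deleted genes.

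Differences are given as adr-2(-) minus control as log2(value + 10), where the added 10 shrinks the change of a low gene, and were tested with limma. A gene was called at a Benjamini-Hochberg adjusted p under 0.05 with a difference of at least 1 in size. Of 13061 genes, 2355 were higher in adr-2(-) inputs, which is 18.0% of those tested, and 2256 were lower, which is 17.3%. The 2 kinds of gene differed in length, with a median exon length of 808 bases among the higher genes and 2191 bases among the lower ones. Rescaling each input to the same total moved the median of all genes from 0.04 to -1.04 and gave 297 higher and 6491 lower genes. The same total without the 10 most abundant genes gave 599 and 5091, and leaving out the ribosomal RNA genes gave 562 and 5193. Without control replicate 1 the counts were 931 higher and 512 lower, and without control replicate 2 they were 1005 and 568.

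Short transcripts ran higher in adr-2(-) inputs and long ones lower. In the shortest of 10 exon length classes, from 21 to 587 bases, the median difference was 1.15, and 706 of 1308 genes were called higher against 24 lower. In the longest class, from 3203 to 56044 bases, the median difference was -0.89. The classes between fell in order from 0.75 to -0.63. Each of the 4 pairs of single libraries across strains gave this order, with medians of 1.16 to 1.21 in the shortest class, whereas replicates of one strain differed by at most 0.07 in any class. Between the IPs of the 2 strains the class medians ranged only from -0.15 to 0.15. Without ribosomal proteins and collagens the shortest class still had a median of 1.10. Across genes the difference correlated with log2 exon length at r = -0.49 and with GC content at r = 0.07, a description only since genes are not independent. Whether RNA quality or library preparation differed between the strains was not tested.

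**Figure D1:**
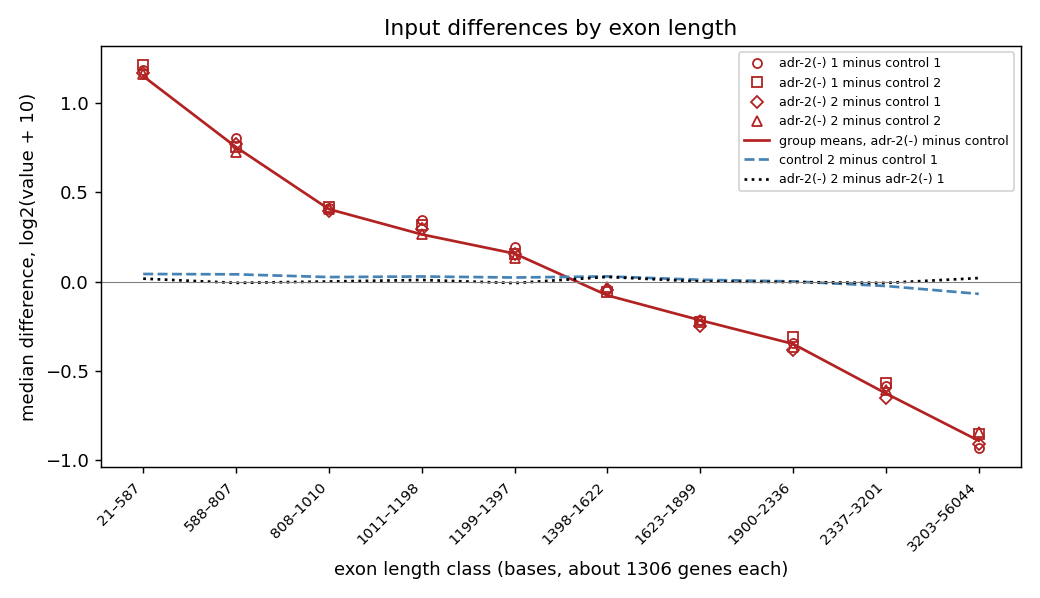
Median difference in log2(value + 10) between inputs for 10 classes of exon length, in bases. Red symbols are the 4 single-library pairs across strains and the red line the group means, falling from 1.15 to -0.89. Blue and black lines are differences between replicates of one strain, which stay within 0.07 of 0.

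Each gene was therefore set beside genes of like length in a further fit, in which every library's own trend of log2 value on exon length was removed. This length-adjusted difference called 1898 of 13057 genes higher (14.5%) and 1599 lower (12.2%). Of these, 1351 higher and 1309 lower genes had also been called before the adjustment, and no gene was called in opposite directions. The median exon length was then 1383 bases among the higher and 1472 bases among the lower genes, against 1397 bases for all tested. Rescaling to the same total left 2016 higher and 1604 lower genes, so these counts depended far less on the scaling. Without control replicate 1 there were 1238 higher and 821 lower, and without control replicate 2 there were 1316 and 774. The median over all genes was 0.10 on this scale. For single genes, the median difference of the 200 tested genes nearest in exon length is given as the length neighbours' median.

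The dod-24 gene, an intestinal CUB-like domain gene that responds to DAF-16 and PQM-1, measured 575 and 506 normalised units in controls and 3861 and 3839 in adr-2(-). The groups did not overlap and the mean was 7.13-fold higher in adr-2(-) (log2 difference 2.81 ± 0.12 (SE), adjusted p = 2.6e-07, limma). Its length neighbours had a median of 0.17, and its length-adjusted difference was 2.70. This direction is opposite to that in the study, which describes a dod-24 GFP reporter as low in adr-2(-) animals. The strain used there had tagged ADR-1 from the genomic locus, and the measure for that strain was GFP. Elsewhere the study measured dod-24 RNA by qPCR and found it decreased after gsk-3 RNAi. The cause of the contrast with the reporter was not tested. The gsk-3 gene, which encodes glycogen synthase kinase 3, was the reverse. It stood at 794 and 793 units in the controls and at 141 and 116 in adr-2(-), a mean 6.18-fold lower (log2 difference -2.54 ± 0.18 (SE), adjusted p = 1.7e-06, limma). Its length neighbours had a median of -0.48, and its length-adjusted difference was -2.06.

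The promoters of 6 genes described here are shown because GATA cores were frequent near the start of the tested protease and lectin genes. For these families the cores were counted over all tested members, whatever the direction of the difference. Shares by direction are given below for all called genes. For contrast, 2 genes that were lower are included. Each run covers 250 bases before to 50 bases after the annotated gene start in WBcel235 (ce11), 5′ to 3′ on the strand of the gene, read from the RefSeq genome. Capitals mark TGATAA or its reverse complement TTATCA, the GATA core, extended where the longer PQM-1-associated element TGATAAG or CTTATCA is present, and TGTTTAC or GTAAACA, the DAF-16 binding element. Genes shown are higher in adr-2(-) inputs (dod-24, cpr-5, asp-1, clec-63) or lower (hsp-12.6, tts-1), and the windows of asp-1 and hsp-12.6 hold none of these motifs.
dod-24 (chrIV:12941305-12941604, minus strand): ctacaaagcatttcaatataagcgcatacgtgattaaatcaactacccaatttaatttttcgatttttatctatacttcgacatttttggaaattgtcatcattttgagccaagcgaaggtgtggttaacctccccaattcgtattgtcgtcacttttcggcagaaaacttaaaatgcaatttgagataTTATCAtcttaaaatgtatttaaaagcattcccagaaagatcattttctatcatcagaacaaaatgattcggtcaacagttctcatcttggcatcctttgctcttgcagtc
cpr-5 (chrV:1133987-1134286, minus strand): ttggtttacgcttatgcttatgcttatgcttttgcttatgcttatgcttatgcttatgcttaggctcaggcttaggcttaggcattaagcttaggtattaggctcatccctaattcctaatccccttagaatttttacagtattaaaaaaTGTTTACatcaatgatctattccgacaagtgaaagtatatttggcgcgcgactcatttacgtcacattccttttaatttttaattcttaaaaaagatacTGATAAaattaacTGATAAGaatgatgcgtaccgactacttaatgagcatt
asp-1 (chrV:19050703-19051002, minus strand): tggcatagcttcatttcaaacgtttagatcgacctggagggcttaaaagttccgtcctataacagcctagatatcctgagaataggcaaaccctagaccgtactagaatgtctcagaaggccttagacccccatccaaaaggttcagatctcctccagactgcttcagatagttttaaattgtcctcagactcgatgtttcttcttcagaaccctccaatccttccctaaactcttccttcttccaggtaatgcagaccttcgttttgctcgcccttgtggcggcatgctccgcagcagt
clec-63 (chrII:12895388-12895687, plus strand): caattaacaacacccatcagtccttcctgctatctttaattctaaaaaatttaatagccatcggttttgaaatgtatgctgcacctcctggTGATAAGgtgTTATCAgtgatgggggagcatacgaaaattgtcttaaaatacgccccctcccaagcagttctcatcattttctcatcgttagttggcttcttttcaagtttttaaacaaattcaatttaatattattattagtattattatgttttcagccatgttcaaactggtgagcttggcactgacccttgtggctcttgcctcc
hsp-12.6 (chrIV:9447179-9447478, minus strand): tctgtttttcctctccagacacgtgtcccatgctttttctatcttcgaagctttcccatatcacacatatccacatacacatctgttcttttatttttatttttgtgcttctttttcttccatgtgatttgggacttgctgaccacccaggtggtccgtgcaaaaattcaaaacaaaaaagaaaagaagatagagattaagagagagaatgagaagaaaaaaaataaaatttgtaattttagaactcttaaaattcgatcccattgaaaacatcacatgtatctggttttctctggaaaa
tts-1 (chrX:1504792-1505091, minus strand): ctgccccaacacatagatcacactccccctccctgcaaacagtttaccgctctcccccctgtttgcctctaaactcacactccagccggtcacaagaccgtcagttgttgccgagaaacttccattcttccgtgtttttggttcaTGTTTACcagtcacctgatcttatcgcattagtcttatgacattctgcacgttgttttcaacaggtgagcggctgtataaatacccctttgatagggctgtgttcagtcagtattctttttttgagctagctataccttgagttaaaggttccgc

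Of 13043 tested genes with a promoter read in this way, 29.5% held TGATAA on either strand, 9.60% held TGATAAG, which contains it, and 5.05% held TGTTTAC. Among the 1351 genes called higher before and after length adjustment, the shares were 38.8, 17.6 and 6.14%. Among the 1309 genes called lower they were 25.4, 5.81 and 5.27%. The cathepsin and aspartyl protease genes had the most, with TGATAA in 20 of 21 and TGATAAG in 13, asp-1 being the gene without. C-type lectin genes held TGATAA in 57 of 83 promoters, whereas early embryo markers held it in 1 of 12. Ribosomal protein genes held TGATAA in 11 of 47 promoters of the large and 10 of 32 of the small subunit, and TGATAAG in 1 and 2. These matches are a description of letters and were not tested.

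Among genes called higher in both fits, the largest length-adjusted differences belonged to nspg-7.2, fmo-2, ilys-5, cpr-5, rrn-1.1, lipl-1, rrn-3.1, dhc-4, F21C10.9 and ttn-1. The nspg-7.2 gene, of a nematode-specific peptide family, rose from 30.1 and 13.2 units to 1005 and 1059.8, a length-adjusted difference of 4.56 ± 0.29 (SE) against a length neighbours' median of 0.52. Reads that fit several gene copies were not counted, so the level of this family member is uncertain. The fmo-2 gene, a flavin-containing monooxygenase induced by fasting and hypoxia, was at 42.1 and 39.5 units in controls and at 429 and 517 in adr-2(-) (length-adjusted 3.49). The invertebrate-type lysozyme ilys-5 went from 105 and 97.5 to 1121 and 1122 units (3.33), and its groups were separated by about the same factor as those of fmo-2, 11.1-fold against 11.6-fold. The cathepsin B-like protease cpr-5 was at 334 and 416 units in controls and 3169.7 and 3465 in adr-2(-) (3.04).

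The lysosomal lipase lipl-1 was low in both strains, with 3.01 and 15.8 units against 115 and 134, and a length-adjusted difference of 2.89. F21C10.9 resembled it, with 12.03 and 7.90 units against 173 and 134 (2.86). The dynein heavy chain dhc-4 and the titin-like muscle protein ttn-1 were called although their transcripts are very long, where length neighbours' medians were -1.16 for both. The dhc-4 gene stood at 223 and 206 units in controls and 576 and 882 in adr-2(-) (2.87). The ttn-1 gene stood at 1937 and 1357 against 4655 and 3625 units (2.80). At 56044 bases it was the longest gene tested, and its length neighbours spanned 6120 to 39690 bases. None was of like length, so the length-adjusted value of ttn-1 is uncertain. Before length adjustment, lipl-1 and dhc-4 were not called without control replicate 1 (adjusted p = 0.062 and 0.063, limma), and dhc-4 and ttn-1 were not called without control replicate 2 (adjusted p = 0.068 and 0.059).

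Among genes called lower in both fits, the most negative length-adjusted differences belonged to hsp-12.6, W02D7.11, F40G12.11, tts-1, Y73B6BL.23, inx-14, T21C9.13, ZK593.2, F43G6.10 and W03D2.6. The small heat shock gene hsp-12.6, a known target of DAF-16, stood at 679.8 and 590.2 units in controls and at 12.8 and 44.5 in adr-2(-), a length-adjusted difference of -4.69 ± 0.37 (SE). Its length neighbours had a median of 0.58, so it fell while transcripts of its length were mostly higher. The long noncoding RNA tts-1, which associates with ribosomes in dauer and long-lived animals, was among the most abundant RNAs of the controls at 149906 and 162095 units. In adr-2(-) it was at 19774 and 18579 units, 8.14-fold lower (log2 difference -3.02 ± 0.14 (SE), adjusted p = 2.6e-07, limma), against a length neighbours' median of 0.75. The groups did not overlap for either gene.

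The innexin gene inx-14, a gap junction subunit needed in the germline, was at 316 and 311 units in controls and at 57.6 and 0 in adr-2(-). F40G12.11 was at 156 and 184 units in controls and was listed at 0 in both adr-2(-) inputs, which is at least 7.42-fold lower against a floor of 3 reads per library. T21C9.13 was measured better, at 478 and 429.5 units against 32.0 and 35.6 (length-adjusted -3.44). W02D7.11 stood at 704 and 609 units against 96.0 and 44.5 (-4.17). The other 4 had few reads in adr-2(-), 3 reads in all for Y73B6BL.23, 2 for ZK593.2 and 1 for W03D2.6, with ratios of control to adr-2(-) of 15.8 (95% interval 5.30 to 77.8), 14.3 (3.83 to 120.5) and 29.4 (5.13 to 1176), which cover counting error only. F43G6.10 was at 93.2 and 108 against 44.8 and 0 units. Before length adjustment, hsp-12.6, W02D7.11, Y73B6BL.23, inx-14 and F43G6.10 were not called when either control replicate was left out (adjusted p = 0.054 to 0.31, limma), nor ZK593.2 without control replicate 1 (0.053) or W03D2.6 without control replicate 2 (0.055). After length adjustment all 10 stayed called.

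**Figure D2:**
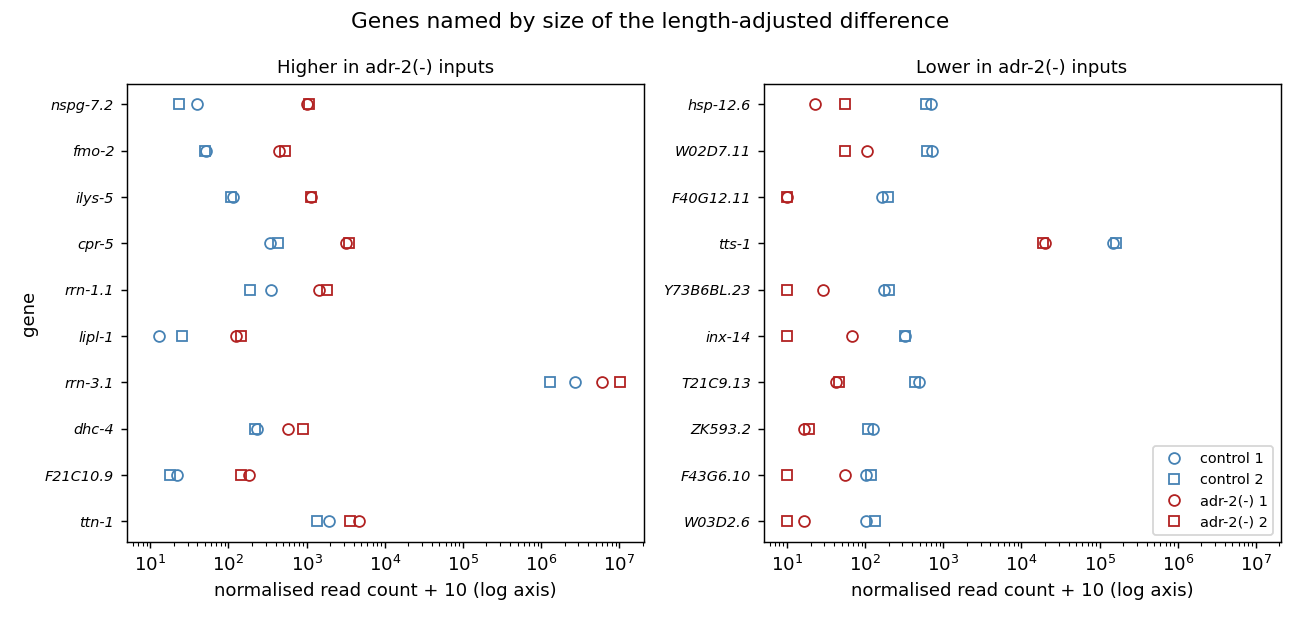
Normalised read count plus 10, on a log axis, in each of the 4 inputs for the 10 genes with the largest positive (left) and the 10 with the most negative (right) length-adjusted difference. Blue symbols are control and red adr-2(-) libraries, circles replicate 1 and squares replicate 2, and the colours do not overlap for any gene shown.

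Genes were then grouped into 33 families. On the deposited scale 24 families had a median above 0, but 16 of these fell below 0 when the inputs were rescaled to the same total, so families are described by their length-adjusted medians, which are set against 0.10 for all genes. Only the basement membrane and the ubiquitin lists, both near 0, had another sign of this median under another scaling. In 8 families the median was 1 or more, and in 0 it was -1 or less. Counts of calls after length adjustment are to be read beside 14.5% higher and 12.2% lower of all genes. Unit values of single genes are on the deposited scale, so a rise in units need not be a rise in reads. Recovered reads of asp-1, eef-1A.1, ric-4 and hsp-90, for example, overlapped between the strains.

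Cytosolic ribosomal proteins, which build the ribosome, formed the most uniform group. On the deposited scale all 47 tested genes of the large subunit and all 32 of the small subunit were called higher, with medians of 2.29 and 2.45, which were 0.99 and 1.16 after rescaling to the same total. Their transcripts are short, and length neighbours' medians of 1.03 and 1.14 accompanied them. After length adjustment 40 of 47 and 30 of 32 were called higher, against 14.5% of all genes, with medians of 1.50 and 1.71. The most abundant, rpl-3, stood at 31647 and 36494 units in controls and at 158484 and 166610.4 in adr-2(-) (length-adjusted 2.36 ± 0.17 (SE)), and rpl-11.2 had the largest unadjusted difference of its subunit, from 14026 and 17836 to 111489.8 and 113502 units. In the small subunit, rps-8 went from 24009.7 and 27082 to 141676 and 149038 units (1.94) and rps-16 from 8612 and 10835 to 67812 and 67537 (1.86). The smallest unadjusted differences were those of rpl-24.2 (1.49, length-adjusted 0.71) and rps-29 (1.48, length-adjusted 0.33). Ribosomal RNA genes moved with this group, and their part in it was not tested. The 26S gene rrn-3.1 was at 2737842 and 1300332 units in controls and at 5940914 and 10310616 in adr-2(-), a difference that was not called when any 1 of the 4 libraries was left out (adjusted p = 0.093 to 0.84, limma, before length adjustment). After length adjustment it was also not called without control replicate 2 (0.12), adr-2(-) replicate 1 (0.74) or adr-2(-) replicate 2 (0.78), although it stands among the 10 genes with the largest difference. The 18S gene rrn-1.1 was at 339.9 and 177 units against 1428 and 1808 (length-adjusted 2.96 ± 0.24 (SE)).

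Other parts of the translation machinery differed in degree. Of 12 ribosome biogenesis genes, 7 were called higher and 0 lower after length adjustment (median 1.22), led by abundance by nog-1, a GTPase of large subunit assembly that differed little (length-adjusted 0.03). The nucleolar methyltransferase fib-1 was at 1609 and 1678 units in controls and 3983 and 3839 in adr-2(-) (length-adjusted 1.29), but its unadjusted difference of 1.25 became -0.04 after rescaling to the same total. Mitochondrial ribosomal proteins had a median of 0.53, with 10 of 70 called higher and 0 lower, a share of higher calls near the 14.5% of all genes. Among translation factors 8 of 41 were higher and 2 lower (median 0.32), beside 14.5 and 12.2% of all genes. The elongation factor eef-1B.2 rose from 2824 and 3257 to 11251 and 11801 units (length-adjusted 2.35), while clu-1 fell from 626 and 522 to 89.7 and 125 units (-1.39). The most abundant, eef-1A.1, was at 73774 and 88353 against 182081 and 234138 units (length-adjusted 1.51), and after length adjustment it was not called without adr-2(-) replicate 2 (adjusted p = 0.079, limma).

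Most cathepsins and aspartyl proteases, which digest proteins in lysosomes and in the gut, were called higher in adr-2(-). Of 21 tested cathepsin and aspartyl protease genes, 15 were called higher and 0 lower after length adjustment, with a median of 1.62, and the length neighbours' median was only 0.16. In 20 of the 21 the groups did not overlap with adr-2(-) above, but the share of all genes so placed is not given here. The aspartyl protease asp-1 was the most abundant at 52029 and 61226 units in controls and 143078 and 159004 in adr-2(-) (length-adjusted 1.33 ± 0.18 (SE)), and cpr-5 above differed most. The cathepsin L gene cpl-1 differed least, at 2452 and 2656 against 2459 and 2984 units (log2 difference 0.09, adjusted p = 0.59). As set out above, 20 of these genes held a GATA core near their start.

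Secreted immune and surface genes were called higher more often than lower. Among lysozymes, saposins and other immune effectors 34 of 69 were higher and 1 lower (median 1.04). The saposin-like spp-14 rose from 7442 and 7655 to 41757 and 45957 units (length-adjusted 1.44), whereas lea-1, a late embryogenesis abundant protein gene that shares this list but protects against drying, was at 2042 and 2319 against 871 and 962 units (-0.27). C-type lectins, which bind sugars, were split, with 31 of 83 higher and 5 lower (median 0.80). The abundant clec-63 rose from 12970.4 and 15019 to 53661 and 58915 units (2.01), and clec-51 from 60.2 and 29.0 to 320.2 and 294 (2.37). The low gene clec-90 went the other way, with 42 reads in the controls and 1 in adr-2(-), a ratio of 15.8 (95% interval 2.69 to 640.2), and was not called before length adjustment without either control replicate (adjusted p = 0.068 and 0.074). Of 34 genes of the intracellular pathogen response, 18 were higher and 0 lower (median 1.04). Its reporter gene pals-5 rose from 48.1 and 36.9 to 237 and 214 units (2.01), and drh-1, an RNA helicase that senses viral RNA, had a length-adjusted difference of 0.12 (adjusted p = 0.72).

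Cuticle collagens, the structural proteins of the worm's exoskeleton, were higher in 54 of 94 genes and lower in 3 after length adjustment (median 1.23, length neighbours' median 0.31). The most abundant, col-42, stood at 11334 and 13357 units in controls and at 35155 and 37299.6 in adr-2(-) (length-adjusted 1.36). The largest difference, in col-3, was from 159 and 187 to 1159 and 1425 units (2.55). Of the lower genes, col-153 had only 4 reads in adr-2(-) (length-adjusted -1.49) and was not called without either control replicate (adjusted p = 0.16 and 0.12). Hedgehog-related and patched-related genes of the epidermis were mixed, with 16 of 60 higher and 4 lower (median 0.46). Of all genes 14.5% were higher and 12.2% lower. The hedgehog-like grd-3 rose from 30.1 and 52.7 to 333 and 338 units (2.18) and the patched-related ptr-2 fell from 508 and 522 to 96.0 and 80.2 (-1.68).

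Basement membrane genes show what the length adjustment does. Of 17, with a median exon length of 5826 bases, 9 were lower and 0 higher on the deposited scale. Of all genes 17.3% were lower on that scale. The median of the 17 was -1.17 beside a length neighbours' median of -0.98. After adjustment the median was 0.01, with 2 higher and 2 lower. The ADAMTS-like papilin gene mig-6 was at 6810.1 and 7017 units in controls and 2196 and 2262 in adr-2(-), a difference of -1.63 that became -0.46. The dystroglycan gene dgn-1 kept its call, from 349 and 261 to 64.0 and 35.6 units (length-adjusted -1.77), though not without control replicate 1 (adjusted p = 0.063). The opposite held for short neuropeptide genes, of which 71 of 112 were called higher and 1 lower on the deposited scale, where 18.0% of all genes were higher (median 1.28, length neighbours' median 1.04). After adjustment 17 were higher and 1 lower (median 0.48), a share of higher calls near the 14.5% of all genes. The antimicrobial-type peptide gene nlp-29 rose from 800.1 and 596 to 3355 and 3473 units (1.19). The FMRFamide-like flp-8 rose from 132 and 137 to 1108 and 1202 units (2.44), while flp-10 had 111 and 87.0 against 32.0 and 26.7 (-2.09; not called without control replicate 1, adjusted p = 0.054). Histone genes behaved in the same way, with 25 of 39 higher and 3 lower before adjustment but 5 and 5 after it. The linker histone-like hil-1 was the lowest, in adr-2(-) at 173 and 196 units against 1044 and 1180.5 in controls (length-adjusted -2.86 ± 0.17 (SE)).

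In muscle, 16 of 36 sarcomere genes were higher and 0 lower after length adjustment (median 0.72). The troponin C gene tnc-2 rose from 373 and 353 to 1575 and 1398 units (1.56), and deb-1, the vinculin of muscle attachments, was at 1026 and 1069.8 against 263 and 392 units, with a length-adjusted difference of -0.79. Synaptic vesicle release genes had 4 of 21 higher and 4 lower (median 0.42), not far from the 14.5 and 12.2% of all genes. The SNAP-25 gene ric-4 rose from 451 and 395 to 1114 and 989 units (1.24) and the clathrin adaptor unc-11 fell from 448 and 414 to 70.4 and 98.0 (-1.53). Before length adjustment unc-11 was not called without control replicate 1 (adjusted p = 0.054, limma), nor deb-1 without control replicate 1 or 2 (0.060 and 0.063). Synaptobrevin, snb-1, was the most abundant of them at 1693 and 1992 against 1979 and 1665 units, and its groups overlapped. Among 165 channel and receptor genes 21 were higher and 8 lower (median 0.12), both shares under those of all genes. In nuclear hormone receptors the counts were 22 higher and 13 lower of 186 (median 0.34), both shares under the 14.5 and 12.2% of all genes, with nhr-49, a regulator of fat breakdown, lower at 365 and 312 against 1104 and 1217 units (-1.28).

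Metabolic families were mixed. Of 74 genes of fatty acid synthesis and breakdown, 19 were higher and 7 lower (median 0.41), beside 14.5 and 12.2% of all genes. The desaturase fat-2 was at 4124 and 4585 units in controls and 9772 and 10447 in adr-2(-) (length-adjusted 1.18), whereas the acyl-CoA synthetase acs-4 fell from 779 and 790.5 to 134 and 142 units (-1.69). Unadjusted, fat-2 changed from 1.21 to -0.08 when the inputs were rescaled to the same total. Detoxification enzymes had 41 higher and 14 lower of 166 (median 0.31), with the glutathione transferase gst-19 rising from 81.2 and 103 to 948 and 1024 units (2.66). In glycolysis 1 gene was higher and 4 lower of 23 (median 0.23, which became -0.04 with a further adjustment for GC content), with the pyruvate kinase pyk-1 falling from 1182 and 1362 to 243 and 294 units (-1.32). Nuclear genes of the respiratory chain had 10 higher and 1 lower of 46 (median 0.50), and the oxidase subunit gene cox-6B, with the largest unadjusted difference, rose from 2208 and 2477 to 10918 and 11480.2 units (1.46). The 12 respiratory chain genes of mitochondrial DNA had 0 called in either direction after adjustment (limma), and a median of -0.22, which was 0.04 without adr-2(-) replicate 2.

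Several families had a median below that of all genes, and only some of them had more lower calls than the 12.2% of all genes. The proteasome, which degrades tagged proteins, had a median of -0.52. Of its 32 genes 1 was called higher and 3 lower, a share of lower calls under that of all genes. In 20 the groups were apart with adr-2(-) below, but the share of all genes so placed is not given here. The regulatory subunit gene rpn-1 fell from 1185 and 1075 to 256 and 285 units (-1.23), and the core subunit pas-5 rose from 4945 and 4464 to 14869 and 15871 (1.31). Vacuolar ATPase genes, which acidify lysosomes, had a median of -0.48, with 1 of 20 higher and 2 lower, again a share under that of all genes. The gene called higher was vha-6, the form of the intestinal apical membrane, at 2099.6 and 2200.2 against 4322 and 4373 units (length-adjusted 1.70, unadjusted 1.01 and -0.28 after rescaling to the same total). Argonautes and RNA interference factors had a median of -0.34, with 1 of 61 higher and 17 lower. The factor rde-11 had 90 reads in controls and 4 in adr-2(-), a ratio of 8.48 (95% interval 3.20 to 31.8), and before length adjustment it was not called without control replicate 1 or 2 (adjusted p = 0.15 and 0.16, limma). The RISC component vig-1, the most abundant, had a length-adjusted difference of 0.74. Heat shock genes had 4 higher and 6 lower of 45 (median -0.22), against 14.5 and 12.2% of all genes. Here the chaperone hsp-90 was at 9707 and 10946 units in controls and 25133 and 26576 in adr-2(-) (1.89), while hsp-12.6 fell. The reads of hsp-90 overlapped, at 3227 and 4154 in controls and 3925 and 2984 in adr-2(-). Long intergenic noncoding RNAs had 2 higher and 5 lower of 27 (median -0.48), and spliceosome genes 1 higher and 3 lower of 53 (median -0.03). Signal recognition and translocon genes had 2 higher and 1 lower of 18 (median -0.21), and ubiquitin-like genes 1 and 0 of 8 (median 0.03). Motors, spectrins and giant membrane proteins had 5 higher and 4 lower of 28, shares near those of all genes. Their median was above that of all genes (0.19).

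**Figure D3:**
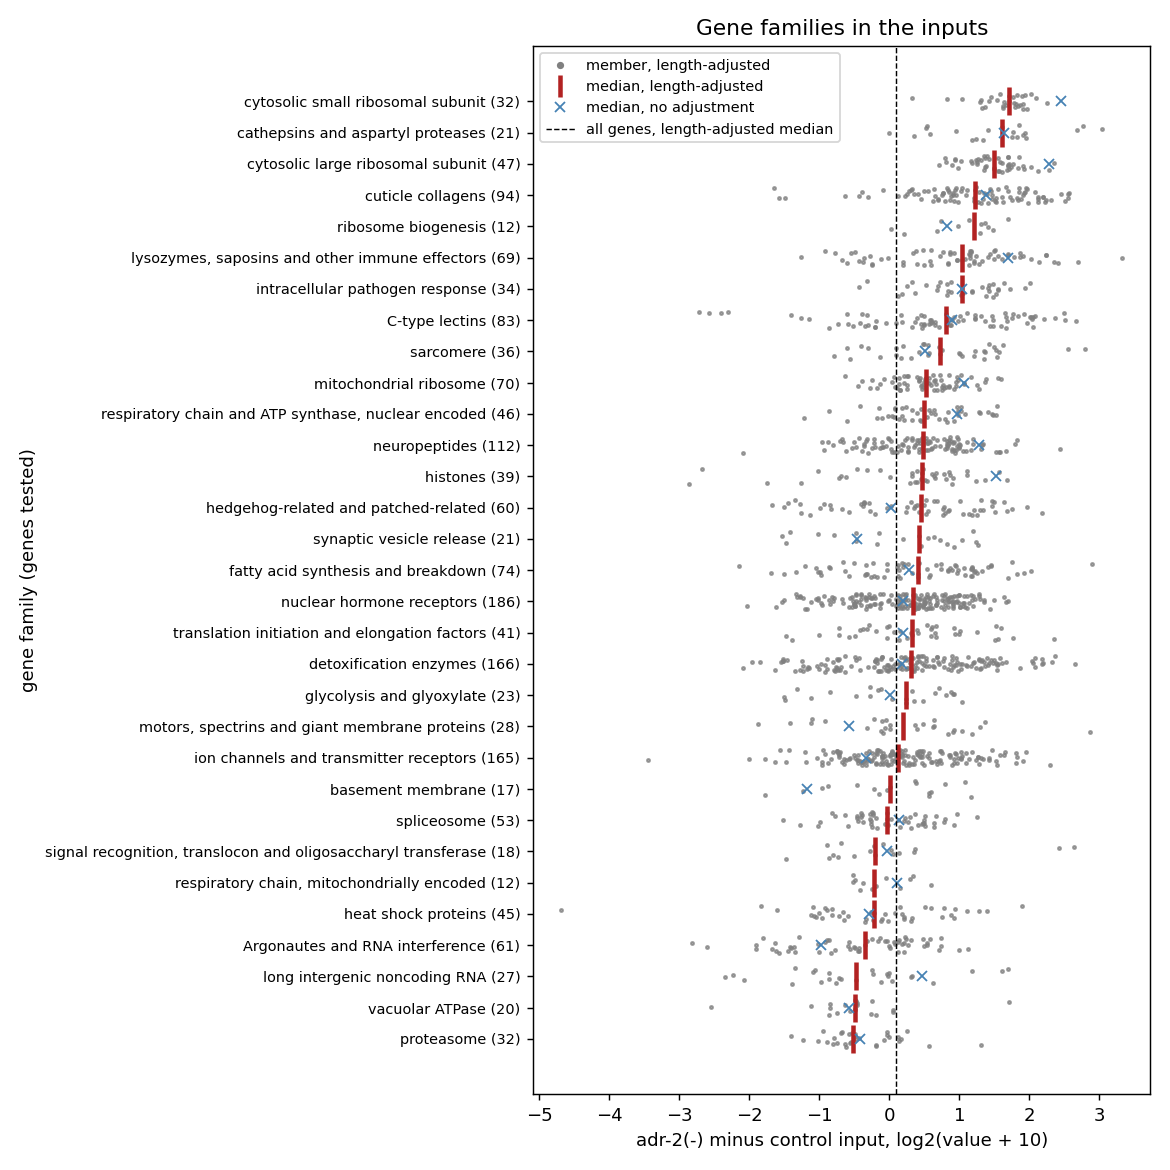
Differences between adr-2(-) and control inputs, in log2(value + 10), for families with at least 10 tested genes, ordered by length-adjusted median. Grey points are members after length adjustment, red bars their median, blue crosses the median without adjustment and the dashed line the length-adjusted median of all genes, 0.10. Ribosomal proteins and cathepsins lie at the top with medians of 1.50 to 1.71, and the proteasome at the bottom with -0.52.

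Gene symbols that share a prefix gave a wider view, with 126 prefixes of at least 10 tested genes. Beside the families above, the highest length-adjusted medians were those of nspg (1.27, 10 of 12 higher), dyf genes of sensory cilia (1.22, 7 of 12 higher) and fipr peptides (1.04, 6 of 11 higher). At the other end were acl acyltransferases (-0.84, 0 higher and 2 lower of 10), ubc ubiquitin-conjugating enzymes (-0.80, 1 higher and 8 lower of 18), ced cell death genes (-0.77, 0 and 3 of 12), ztf zinc finger factors (-0.75, 0 and 8 of 21), zipt zinc transporters (-0.68, 0 and 4 of 12) and npp nuclear pore proteins (-0.68, 0 and 7 of 25). Of all genes 14.5% were called higher and 12.2% lower, so counts in the smallest groups say little. Among nuclear chromosomes the share called lower ranged from 10.4% on chromosomes V and X to 16.3% on chromosome I, and the share called higher from 11.9% on III to 16.8% on V.

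Of 8 lists of stage and tissue markers, those of early embryo, germline and intestine held the most genes called after length adjustment. The 12 tested early embryo markers summed to 6428 and 6413 units in controls and to 762 and 917 in adr-2(-), and 10 of the 12 were called lower and 0 higher after length adjustment (median -2.19). The maternal RNA-binding protein gene mex-6 was at 1083 and 1104 units against 89.7 and 89.1 (length-adjusted -3.11 ± 0.18 (SE)), and the eggshell gene cbd-1 at 1149 and 1149 against 115 and 151 (-2.11). The chitin synthase gene chs-1 was not called, at 138 and 81.7 against 70.4 and 89.1 units. Germline markers summed to 2909 and 2925 units in controls and 1095 and 1211 in adr-2(-), with 10 of 12 lower and 2 higher. The P granule gene pgl-1 fell from 649.7 and 756 to 89.7 and 151 units (-1.87; not called before length adjustment without control replicate 1 or 2, adjusted p = 0.051 and 0.056, limma), and syp-1, of the synaptonemal complex, was the member with the most positive unadjusted difference, 0.38 (214 and 208 against 307 and 249 units, length-adjusted 1.15). Yolk genes, which the adult intestine expresses, had 5 of 5 higher after length adjustment and 0 before it, but vit-1 was not called without control replicate 2 (adjusted p = 0.054, limma).

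Intestine markers summed to 78598 and 89607 units in controls and to 211985 and 232811 in adr-2(-), on the deposited scale. As a share of reads outside ribosomal RNA genes they were 1.29 and 1.40% against 1.78 and 1.87%. After length adjustment 8 of 11 were called higher and 0 lower (median 1.34). Their unadjusted median of 1.21 became -0.08 when the inputs were rescaled to the same total. The acid phosphatase pho-1 rose from 147 and 111 to 634 and 650.2 units (2.38), while elt-7, a GATA factor of the intestine, had a length-adjusted difference of -0.01. Neuron markers summed to 7794 and 8039 against 10348 and 10866 units. As a share of reads outside ribosomal RNA genes they went the other way, with 0.128 and 0.125% in controls against 0.087 and 0.087%. Of 12 neuron markers 2 were called higher and 1 lower, where 14.5 and 12.2% of all genes were called. The neuroendocrine chaperone sbt-1 rose (1.35) and rab-3 fell (-1.48). Before length adjustment rab-3 was not called without control replicate 1 or 2 (adjusted p = 0.097 and 0.086, limma). Body wall muscle markers had 4 of 10 higher and 0 lower, and hypodermis markers 1 of 9 higher and 2 lower, beside the same shares of all genes. Adult sperm markers were low, with 1 of 6 called higher after length adjustment, and spe-18 was at 846 units in adr-2(-) replicate 2 against 12.8 in replicate 1 and 3.01 and 15.8 in controls. In bulk RNA, fewer cells of a type and less RNA per cell cannot be told apart, and a difference in stage cannot be told apart from one in genotype here. The part of these markers in the family results was not tested.

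**Figure D4:**
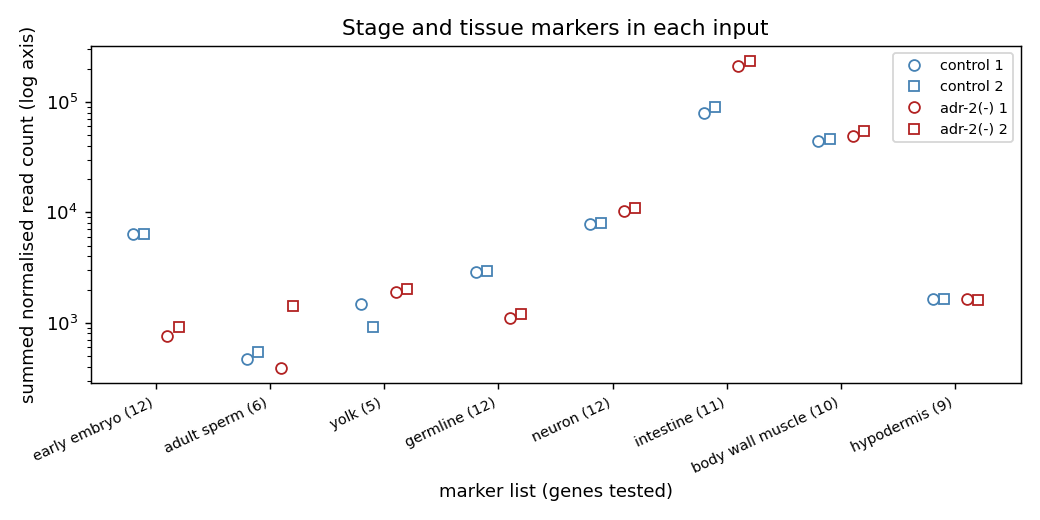
Summed normalised read counts of the tested genes of 8 stage and tissue marker lists in each input, on a log axis, with the number of genes in brackets. Blue symbols are control and red adr-2(-) libraries. Early embryo sums were 6428 and 6413 in controls against 762 and 917, and intestine sums 78598 and 89607 against 211985 and 232811. Sums are on the deposited scale, and their differences depend on the scaling.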

How the data were processed

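Poly(A) RNA of the L1 inputs was sequenced by the authors, who aligned stranded reads with STAR to ce11 and WormBase WS275 annotation, retained those mapping to 1 place and summed them by gene in featureCounts. The deposited signal is the count divided by a DESeq2 size factor, rounded to 2 decimals, and 100% of the values above 0 in the 4 inputs were whole multiples of the value of 1 read within 0.011 units or 0.05%. That tolerance separates multiples only at low values, and among values of at most 100 reads 100% were whole as well. The authors' mean was used only to select rows (within 0.02 or 0.1%; 222 genes did not match and were left out, pqm-1 among them). The genes left out included 6 of 18 early embryo markers and 9 of 99 genes of fatty acid synthesis and breakdown. With mismatched rows kept in, 2361 genes were higher and 2418 lower before length adjustment, and 2004 and 1684 after it. Columns of the authors' log2 ratio, test statistic and p-values were not used. Exon length came from WBcel235, for 13057 of 13061 tested genes.

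Here limma 3.58.1 with a mean-dependent prior (R 4.3.3) was applied to log2(value + 10) of 2 against 2 inputs, and again after subtraction of a lowess fit on log2 exon length within each library (span 0.3). On the recovered reads, edgeR (version 4.0.16) called 2300 genes higher and 2600 lower, and DESeq2 (version 1.42.0) 1629 and 1926. Floors of 3 reads and exact 95% intervals reflect counting error alone, because PCR duplicates were not told apart from molecules. Methods were tested on simulated data, and tables were joined with Python 3.11.15 and pandas 2.3.3. Replicates are biological per the study. The members and gene lists were chosen with earlier results of these data known, the list of mitochondrial DNA genes was matched by chromosome, and the lists of families and markers were not tested as sets. Named genes were, in each direction, the 10 with the largest length-adjusted difference among those called in both fits, with at least 10 reads in each library of the higher group and groups that did not overlap. To these were added the most abundant member and those with the largest and smallest difference in a family, and dod-24 and gsk-3. Alternatives were other pseudocounts, filters, scalings, thresholds, tests and length adjustments, a replicate block, all 8 libraries, and each library left out. The scaling without ribosomal RNA genes was chosen after seeing the data.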

Additional observations from a re-analysis of the deposited data

How the results depend on the processing

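Counts of called genes are given as higher and lower, before and then after length adjustment, and the cause of a change was not tested. They were 735 and 1029, then 237 and 314, with all 8 libraries in the fit, 1499 and 1514, then 1259 and 929, with a pseudocount of 50, and 1287 and 1242, then 1004 and 657, at an adjusted p under 0.001. Rescaling to the same total gave 297 and 6491 before adjustment, the same total without the 10 most abundant genes 599 and 5091, and without ribosomal RNA genes, a setting chosen after seeing the data, 562 and 5193. After adjustment DESeq2 gave 1186 higher genes and a difference beyond 0.5 gave 3012. Leaving out each library in turn gave 931 to 2649 higher and 512 to 2574 lower before adjustment, and 1238 to 2265 and 774 to 1968 after it. With all other settings these counts stayed within 1.5 times. The gap between the shortest and the longest length class, 2.04, was 2.36 with a pseudocount of 1, 1.48 with 50, 2.33 at an input mean of at least 50, 2.19 rescaled to the same total, 2.16 without the 10 most abundant and also without ribosomal RNA genes, 2.32 with edgeR and 2.34 with DESeq2, and 2.02 to 2.08 without each library. The 8 families with a length-adjusted median of at least 1 became 5 with a pseudocount of 50, and 6 to 8 without each library. Rescaling to the same total turned the unadjusted difference of mrps-11 to -0.26, fib-1 to -0.0447, mlc-2 to -0.0647, sid-5 to -0.0916, fat-2 to -0.0789, ldh-1 to -0.24, sec-61.G to -0.14, vha-6 to -0.28 and dpy-7 to -0.19.

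Replicate numbers in the labels are shared by the strains, and the deviations of same-numbered inputs correlated at 0.00 across genes. This value cannot tell whether same-numbered inputs were prepared together, since a shared batch need not shift both strains alike. The main fit used no pairing. With a replicate block 2391 genes were higher and 2311 lower, then 1875 and 1602 after length adjustment. Having 2 inputs per group, of 2595323 to 2969937 reads, limits precision, and 1962 of the tested genes had fewer than 10 reads in every input.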
